A study of Mus musculus with 5 samples.

Results

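The Krueppel-like factor genes Klf2, Klf3, Klf4, Klf6, Klf7, Klf9, Klf10, Klf12 and Klf13 were followed in lung natural helper cells, innate lymphocytes also called group 2 innate lymphoid cells. They were taken by symbol from the array platform's annotation, as 9 of the 19938 genes measured by a probe set with a single gene symbol, and each was measured by 1 probe set. Gene expression had been measured on 5 Affymetrix arrays, 2 of cells cultured for 3 days with 60 ng/ml PMA (a phorbol ester, activator of protein kinase C) and 500 ng/ml ionomycin (a calcium ionophore), and 3 of unstimulated cells lysed straight after the sort. All cells came from naive C57Bl/6 mice aged 6 to 8 weeks and had been sorted from lung as negative for lineage markers and positive for Sca-1, CD127 and CD25, with little or no c-Kit. No array of cells cultured without PMA and ionomycin was analysed here, so effects of culture, of stimulation and of the lapse of time after the sort cannot be told apart. Separate mice or cultures are not stated for the arrays of a group, so each p-value reflects the spread among these 5 arrays alone, which may be technical.

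Krueppel-like factors are DNA-binding proteins whose zinc fingers, at the carboxyl end, bind CACCC and GC-rich boxes, while the rest of each protein recruits activators or repressors. In lymphocytes the family is best known for quiescence: KLF2 keeps resting T cells from dividing and drives the egress receptor gene S1pr1, and KLF4 and KLF9 restrain proliferation. KLF6 and KLF10 belong to the genes switched on early by injury, stress or TGF-beta. KLF3 and KLF12 act as repressors through the corepressor CtBP, KLF7 is best known from neurons, and KLF13 was described as an activator of the chemokine gene CCL5 in human T cells.

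The genes with the widest differences, Klf3, Klf4 and Klf6, were the ones that fell, so the 250 bases before their annotated starts are shown, with those of Klf2, whose difference was the smallest. The sequences are from RefSeq on GRCm38.p6, read 5′ to 3′ on the strand of the gene. Capitals mark the GC box GGGCGG and the CACCC box on either strand, the boxes that factors of this family bind. The windows are chr4:55532476-55532725 on the minus strand for Klf4, chr13:5861239-5861488 on the plus strand for Klf6, chr5:64803271-64803520 on the plus strand for Klf3 and chr8:72318812-72319061 on the plus strand for Klf2.
Klf4: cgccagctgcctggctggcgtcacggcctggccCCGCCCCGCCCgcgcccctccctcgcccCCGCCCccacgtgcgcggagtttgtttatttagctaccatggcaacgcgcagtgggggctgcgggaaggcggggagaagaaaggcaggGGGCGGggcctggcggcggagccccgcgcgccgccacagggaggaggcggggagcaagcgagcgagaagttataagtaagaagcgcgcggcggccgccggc
Klf6: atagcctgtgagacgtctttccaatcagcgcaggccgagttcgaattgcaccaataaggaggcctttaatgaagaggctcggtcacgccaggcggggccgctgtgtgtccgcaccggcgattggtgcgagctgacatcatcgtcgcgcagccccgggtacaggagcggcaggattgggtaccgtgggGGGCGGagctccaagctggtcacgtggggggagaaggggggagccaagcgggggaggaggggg
Klf3: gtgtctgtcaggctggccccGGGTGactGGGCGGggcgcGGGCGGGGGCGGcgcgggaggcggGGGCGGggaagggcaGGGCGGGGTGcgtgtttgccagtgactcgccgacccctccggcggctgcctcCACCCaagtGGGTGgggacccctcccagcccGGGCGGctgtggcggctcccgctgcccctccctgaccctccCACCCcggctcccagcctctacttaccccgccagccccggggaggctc
Klf2: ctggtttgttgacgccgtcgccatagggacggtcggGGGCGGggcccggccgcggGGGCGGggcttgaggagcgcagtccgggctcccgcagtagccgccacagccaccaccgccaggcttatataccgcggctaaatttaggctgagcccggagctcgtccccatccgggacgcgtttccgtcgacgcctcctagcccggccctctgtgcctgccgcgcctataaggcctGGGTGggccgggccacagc

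Windows were found for 8 of the 9 genes, all but Klf10. Those of Klf7 and Klf12 lay inside the annotated gene rather than before its outer end, for Klf12 far inside. The motifs searched on both strands were compared with 32851 windows of the same length from all genes. The GC box stood in 6 of the 8 windows and in 32.7% of all windows, and CACCC in 6 of 8 and 52.0% of all. Klf3 held 6 GC boxes and 5 CACCC boxes, Klf4 held 4 GC boxes, Klf2 held 2 GC boxes and 1 CACCC box, and Klf6 held 1 GC box. The motif TGACG, the core of the cAMP response element, stood in 5 of 8 windows (Klf2, Klf4, Klf9, Klf12 and Klf13) and 17.8% of all. The E-box CACGTG stood in those of Klf4 and Klf6 (6.02% of all). The AP-1 motif TGANTCA (6.75% of all) and the FOXO motif TGTTTAC (3.17% of all) stood only in the window of Klf9, and the CArG box of serum response factor (1.47% of all) in none. A match is a description of letters, and GC content differs too: it was 74% for Klf4, 78.4% for Klf3, 64.8% for Klf6 and 71.2% for Klf2, against a median of 52.4% over all windows.

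Values are log2 expression values from robust multi-array averaging (RMA), differences are PMA and ionomycin minus unstimulated, and a gene was called where limma's Benjamini-Hochberg adjusted p over all 19938 genes was under 0.05. Over all genes, 147 were called higher and 192 lower, and at an unadjusted p under 0.05 stood 11.3% of genes higher (2262) and 8.58% lower (1711), the shares against which the unadjusted counts given for gene lists are to be read. The levels had no detection calls and no true zero, and 62.0% of genes had the same value, to 5 decimals, on at least 2 arrays, which none of the 9 genes had. The permutation test of 2 against 3 arrays cannot go below an exact p of 0.1, so it was not used.

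Of the 9 genes, 3 fell (Klf3, Klf4 and Klf6) and none rose, where 0.963% of all genes were called lower and 0.737% higher. On all 9, both PMA and ionomycin arrays lay below all 3 unstimulated arrays, as they did for 14.0% of all genes and for 30.8% of the 7579 genes without a repeated value. The median difference of the 9 genes was -0.92, against 0.00 over all genes tested. Of all genes 62.0% had a repeated value, which can hold their median at 0, and none of the 9 had one. Since the arrays are of bulk RNA, fewer cells of a type and less RNA per cell cannot be told apart.

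**Figure D1:**
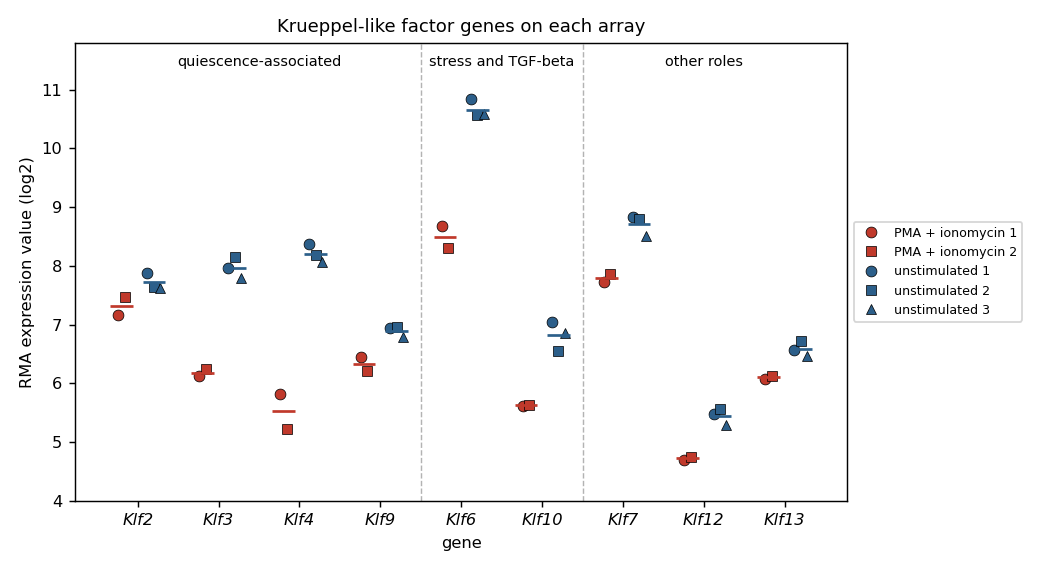
RMA expression value (log2) of the 9 genes on each array, with PMA and ionomycin arrays in red on the left of each gene, unstimulated arrays in blue on the right and horizontal lines at the group means. Both red points lie below the 3 blue points for every gene, with the widest gap for Klf4 (2.23) and the narrowest for Klf2 (0.16).

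Klf4, which restrains proliferation of lymphocytes and is also a factor of monocytes and endothelium, read 5.82 and 5.22 on the PMA and ionomycin arrays, against 8.38, 8.18 and 8.06 on the unstimulated arrays. Both stimulated values were low and the groups were far apart, although the stimulated arrays differed from each other by 0.61, more than the unstimulated ones did (0.32). Its stimulated values lay around the median of all probe sets (5.64), and without detection calls a part of them may be background. On this scale Klf4 fell 6.42-fold (-2.68 ± 0.23 SE, adjusted p = 0.0441 in limma, n = 2 and 3), and 0.201% of all genes had a larger drop.

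Klf3, the gene of a CtBP-recruiting repressor, read 6.12 and 6.25 on the PMA and ionomycin arrays, against 7.97, 8.15 and 7.79 on the unstimulated arrays. The gap between the groups (1.55) was 4.38 times the wider of the ranges within them. It fell 3.45-fold (-1.79 ± 0.13 SE, adjusted p = 0.0358 in limma).

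Klf9, a repressor gene induced by glucocorticoid and thyroid hormones, read 6.45 and 6.20 on the PMA and ionomycin arrays, against 6.94, 6.97 and 6.78 on the unstimulated arrays. The groups did not overlap, but the difference of -0.57 ± 0.11 SE did not pass the test (adjusted p = 0.102 in limma).

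Klf2, the best-known quiescence factor of lymphocytes, read 7.17 and 7.47 on the PMA and ionomycin arrays, against 7.88, 7.65 and 7.63 on the unstimulated arrays. The gap of 0.16 between the groups was smaller than the range within either (0.30 and 0.25). Its difference of -0.40 ± 0.14 SE was the smallest of the 9 and did not pass the test (adjusted p = 0.249 in limma). It was called under none of the 18 other settings tried, where its difference ran from -0.55 to -0.25.

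Klf6, a factor gene induced by tissue injury, read 8.67 and 8.31 on the PMA and ionomycin arrays, against 10.84, 10.56 and 10.58 on the unstimulated arrays. The gap of 1.89 was 5.22 times the wider of the ranges within groups, the largest such ratio of the 9 genes. Klf6 fell 4.51-fold (-2.17 ± 0.16 SE, adjusted p = 0.0369 in limma), leaving 22.2% of the unstimulated level.

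Klf10, first described as a TGF-beta inducible early gene, read 5.62 and 5.63 on the PMA and ionomycin arrays, against 7.04, 6.56 and 6.85 on the unstimulated arrays. The stimulated arrays were nearly equal, and the unstimulated ones spread over 0.48. The stimulated values lay at the median of all probe sets (5.64), so a part of them may be background. The difference of -1.19 ± 0.17 SE did not pass the test (adjusted p = 0.0707 in limma).

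The remaining 3 genes had groups that did not overlap and differences under 1 log2 unit. Klf7 read 7.73 and 7.86 on the PMA and ionomycin arrays, against 8.84, 8.80 and 8.51 on the unstimulated arrays (-0.92 ± 0.13 SE, adjusted p = 0.0711 in limma). Klf12 read 4.70 and 4.75 in PMA and ionomycin cells, against 5.48, 5.57 and 5.29 in unstimulated cells (-0.72 ± 0.10 SE, adjusted p = 0.0687 in limma). Its stimulated values lay near the lower quartile of all probe sets (4.49), where no detection call separates signal from background. Klf13 read 6.08 and 6.13 on the PMA and ionomycin arrays, against 6.56, 6.73 and 6.47 on the unstimulated arrays (-0.48 ± 0.09 SE, adjusted p = 0.103 in limma).

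Grouped by role, the quiescence-associated and the stress-responsive genes did not part in direction. Differences of the 4 quiescence-associated genes (Klf2, Klf3, Klf4, Klf9) ran from -2.68 to -0.40 with a median of -1.18, and 2 were called. Klf3, 1 of these 2, was placed in this group by choice, although its product is described above as a CtBP repressor like KLF12. The median and the count depend on that choice. Those of the stress- and TGF-beta-responsive pair, Klf6 and Klf10, were -2.17 and -1.19, and 1 was called. The 3 other genes ran from -0.92 to -0.48, and none was called in limma, though all 3 had an unadjusted p under 0.05. The wide range lay within the quiescence-associated genes themselves: the level left after PMA and ionomycin was 15.6% of the unstimulated one for Klf4, 29.0% for Klf3, 67.3% for Klf9 and 75.7% for Klf2, with any background counted in. These differences between genes are descriptions and were not tested.

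The stimulated arrays did not rank the genes alike. Klf4 (by 0.61), Klf6 (by 0.36) and Klf9 (by 0.25) were higher on PMA and ionomycin array 1 than on array 2, and Klf2 (-0.30), Klf7 (-0.14) and Klf3 (-0.13) were lower there. Klf10, Klf12 and Klf13 differed by at most 0.05 between these arrays. Between unstimulated arrays 1 and 3, all 9 genes were higher on array 1, by 0.09 (Klf13) to 0.32 (Klf7).

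The other KLF genes and their relatives of the Sp family, which bind similar GC boxes, were set beside the 9. None of the 8 other KLF genes and none of the 8 measured Sp genes was called in limma (3 of the 16 had an unadjusted p under 0.05, all lower, against 8.58% of all genes lower and 11.3% higher), and Sp2 was not measured. These 3 were Klf5, a factor gene of epithelium (6.45 and 6.78 on the PMA and ionomycin arrays, against 7.77, 7.71 and 7.52 on the unstimulated arrays), Klf11, a close relative of Klf10, and Sp4. Their differences were -1.05 ± 0.14 SE for Klf5 (adjusted p = 0.0687 in limma), -0.59 ± 0.12 for Klf11 (adjusted p = 0.110) and -0.72 ± 0.11 for Sp4 (adjusted p = 0.0815). Sp3, a widely expressed factor gene, differed by -0.10 ± 0.07 (adjusted p = 0.499), with overlapping groups and a difference of 0.024 against unstimulated array 3 alone.

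Of these 16 genes, 12 held a repeated value (Klf1, Klf8, Klf14, Klf15, Klf16, Klf17, Sp1, Sp5, Sp6, Sp7, Sp8 and Sp9), and their differences ran from -0.14 to 0.24. Where such a value stands in both groups the groups overlap by that alone, so their overlap is no result. Sp1, for example, was listed at 7.15 on 4 of the 5 arrays.

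**Figure D2:**
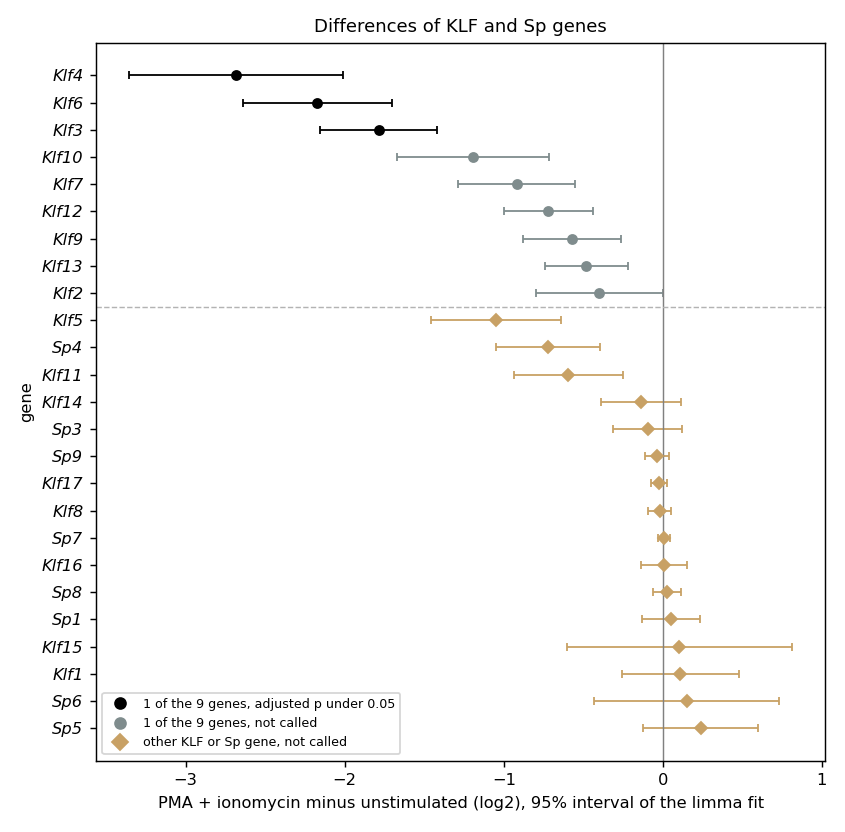
Difference (PMA and ionomycin minus unstimulated, log2) with the unadjusted 95% interval of the limma fit for the 9 genes (circles, black where called) and 16 other KLF and Sp genes (diamonds). Klf4, Klf6 and Klf3 stand at -2.68, -2.17 and -1.79, and most diamonds lie near 0, apart from Klf5, Sp4 and Klf11.

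Regulators known to act on KLF genes were measured for 19 of 19 listed genes. The glucocorticoid receptor gene Nr3c1, whose product induces Klf9, fell (8.48 and 8.50 on the PMA and ionomycin arrays, against 9.80, 9.74 and 9.60 on the unstimulated arrays). Its difference was -1.22 ± 0.07 SE (adjusted p = 0.0307 in limma), and no other gene of the list was called (7 lower and none higher at an unadjusted p under 0.05, against 8.58% and 11.3% of all genes, list median -0.30). Foxo1, whose product drives Klf2 in T cells, differed by -0.47 ± 0.18 (adjusted p = 0.299) and Elf4, a factor gene upstream of Klf4 in CD8 T cells, by -0.30 ± 0.15 (adjusted p = 0.432). Smad3, a transducer gene of TGF-beta signals, differed by -1.44 ± 0.18 (adjusted p = 0.0628).

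None of 13 cofactor genes was called in limma (3 higher and 2 lower at an unadjusted p under 0.05, against 11.3% and 8.58% of all genes), and their median difference was 0.17. The corepressor genes Ctbp1 (0.20 ± 0.15 SE, adjusted p = 0.482 in limma) and Ctbp2 (-0.04 ± 0.04, adjusted p = 0.619) code for the CtBP that KLF3 and KLF12 recruit. Both held a value repeated in both groups (7.46 for Ctbp1, 6.27 for Ctbp2), so the overlap of their groups is no result. Differences ran both ways: that of the acetyltransferase gene Kat2b was -0.77 ± 0.10 (adjusted p = 0.0638), that of the deacetylase gene Hdac2 0.54 ± 0.10 (adjusted p = 0.105) and that of Fhl3 0.83 ± 0.23 (adjusted p = 0.184).

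Of 22 listed targets of KLF factors, 20 were measured, 1 fell, none rose (7 lower and none higher at an unadjusted p under 0.05, against 8.58% and 11.3% of all genes), and the median was -0.40. The gene that fell was Txnip, which codes for a thioredoxin inhibitor (7.25 and 7.39 on the PMA and ionomycin arrays, against 9.55, 9.57 and 9.67 on the unstimulated arrays, -2.28 ± 0.06 SE, adjusted p = 0.0168 in limma). S1pr1, the egress receptor gene driven by KLF2, read 6.96 and 6.92 on the PMA and ionomycin arrays, against 9.97, 9.51 and 7.80 on the unstimulated arrays. Unstimulated array 3 stood apart for this gene, and the difference (-2.15 ± 0.77, adjusted p = 0.266) was -0.86 against array 3 alone. All 12 endothelial markers given below were likewise lower on array 3 than on arrays 1 and 2, and 1 of them, Eng, is also on this target list. The part of other cells in the target differences was not tested.

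Other targets had differences that did not pass the test. The integrin gene Itgb7, linked to KLF2 in T cells, differed by -1.01 ± 0.20 SE (adjusted p = 0.111 in limma) and the chemokine receptor gene Ccr7 by -0.42 ± 0.33 (adjusted p = 0.508), or -0.15 without unstimulated array 2 and -0.032 against array 3 alone. Smad7, an inhibitor gene of TGF-beta signals that KLF10 represses, read 5.75 and 5.72 on the PMA and ionomycin arrays, against 7.60, 7.88 and 7.10 on the unstimulated arrays (-1.79 ± 0.27, adjusted p = 0.0766). The cell cycle inhibitor gene Cdkn1b differed by -0.57 ± 0.08 (adjusted p = 0.0687), Myc by -0.37 ± 0.21 (adjusted p = 0.467) and Ccl5 by -2.14 ± 0.44 (adjusted p = 0.116).

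A list of early genes known to be induced when tissue is dissociated was drawn up with KLF genes left out. Their absence says nothing on whether KLF genes are induced that way. Of the list's 19 measured members 8 fell and none rose (15 lower and none higher at an unadjusted p under 0.05, against 8.58% and 11.3% of all genes). In 16 of the 19 the PMA and ionomycin arrays lay below the unstimulated ones, and in Ier3, Socs3 and Hspa8 the groups overlapped. The median was -1.88, and the widest differences among those that fell were those of the AP-1 subunit genes Fosb (-4.80 ± 0.06 SE, adjusted p = 0.0105 in limma), Fos (-2.95 ± 0.11) and Jun (-2.89 ± 0.21). Also among the 6 widest were the phosphatase gene Dusp1 (-3.36 ± 0.15), the stress factor gene Atf3 (-2.19 ± 0.17) and the NF-kappaB inhibitor gene Nfkbia (-2.06 ± 0.19). Summed on the linear scale, the list stood at 6015 and 6749 on the PMA and ionomycin arrays, against 18760, 16700 and 16050 on the unstimulated arrays. The 9 KLF genes stood at 1120 and 1060 on the PMA and ionomycin arrays, against 3505, 3104 and 2937 on the unstimulated arrays. On every array the largest part came from Hspa8 in the early genes, which hardly differed (-0.01 ± 0.05 SE), and from Klf6 in the KLF genes. The sums are therefore no measure of a drop shared by each list. All unstimulated cells were fresh from dissociation and the sort and all stimulated cells had been cultured, so dissociation, culture and stimulation cannot be told apart for either list.

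Markers of other cells also differed between arrays. All 12 endothelial markers were lower on unstimulated array 3 than on arrays 1 and 2, and summed to 637 and 702 on the PMA and ionomycin arrays, against 2732, 1956 and 832 on the unstimulated arrays. The 8 lung epithelial markers summed to 534 and 638 in PMA and ionomycin cells, against 3098, 1985 and 813 in unstimulated cells. The marker Scgb1a1 carried most of the unstimulated sums of arrays 1 and 2 (11.17 and 10.58, against 8.67 on array 3). Of the 8, 5 were lower on array 3 than on arrays 1 and 2, and Epcam was highest there. The 11 measured monocyte and macrophage markers summed to 752 and 579 in PMA and ionomycin cells, against 1343, 1253 and 1000 in unstimulated cells. T cell markers (7 measured) summed to 2007 and 1681 in PMA and ionomycin cells, against 2291, 2813 and 1739 in unstimulated cells. B cell markers (7 measured) summed to 247 and 245 in PMA and ionomycin cells, against 280, 306 and 233 in unstimulated cells, and erythroid markers (4 measured) to 190 and 207 in PMA and ionomycin cells, against 191, 189 and 194 in unstimulated cells. None of the markers of these other cells was called in limma, although 3 endothelial, 3 monocyte and macrophage, 1 epithelial and 2 T cell markers (Cd3g and Cd4) were lower at an unadjusted p under 0.05 and 1 T cell marker (Cd28, 1.43 ± 0.41 SE) was higher, against 8.58% of all genes lower and 11.3% higher. The part of other cells in the KLF differences was not tested. Of the 13 measured natural helper cell markers 5 fell (Rora, Il17rb, Il7r, Kit and Id2) and none rose (8 lower and 2 higher at an unadjusted p under 0.05). Kit read 7.12 and 6.84 on the PMA and ionomycin arrays, against 9.88, 9.97 and 9.69 on the unstimulated arrays. The cells had been sorted with little or no c-Kit, its protein product, and the arrays are of RNA. On Il13 (2.41 ± 0.43 SE, adjusted p = 0.0942 in limma), Il5 (0.71 ± 0.33, adjusted p = 0.382) and Il2ra (0.19 ± 0.04, adjusted p = 0.101) both PMA and ionomycin arrays lay above the unstimulated ones. The 13 markers summed to 15880 and 16640 on the PMA and ionomycin arrays, against 18420, 19340 and 17230 on the unstimulated arrays.

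Array 3 was the unstimulated array with the lowest endothelial, epithelial and macrophage marker sums. All 9 KLF genes had negative differences from it, a sign that could not change because their groups did not overlap. These differences were smaller than over the 3 unstimulated arrays for all but Klf10. Against array 3 alone the 9 genes had a median difference of -0.72, and the early genes induced by dissociation one of -1.31. The endothelial markers had one of -0.18, the epithelial markers one of -0.17 and the monocyte and macrophage markers one of -0.08. A repeated value stood in 8 of the 11 monocyte and macrophage markers and in 3 of the 8 epithelial ones. It stood in no endothelial marker and in none of the 9 KLF genes. Such values can hold a median near 0, so these medians are not of like genes. Against array 3, the monocyte and macrophage markers ran from -2.44 to 0.17 and the epithelial ones from -1.21 to 0.35. Among the monocyte and macrophage markers, Lyz2, a lysozyme gene of myeloid cells, read 4.11 and 3.98 on the PMA and ionomycin arrays. On the unstimulated arrays it read 7.88, 7.50 and 6.49. Its difference against array 3 alone was -2.44, close to that of Klf4. For the KLF genes it was -2.54 for Klf4, -2.09 for Klf6, -1.61 for Klf3, -1.23 for Klf10 and -0.31 for Klf2. With a lone unstimulated array, assumed to vary like the stimulated ones, limma called no gene (3739 at an unadjusted p under 0.05, among them 6 of the 9).

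**Figure D3:**
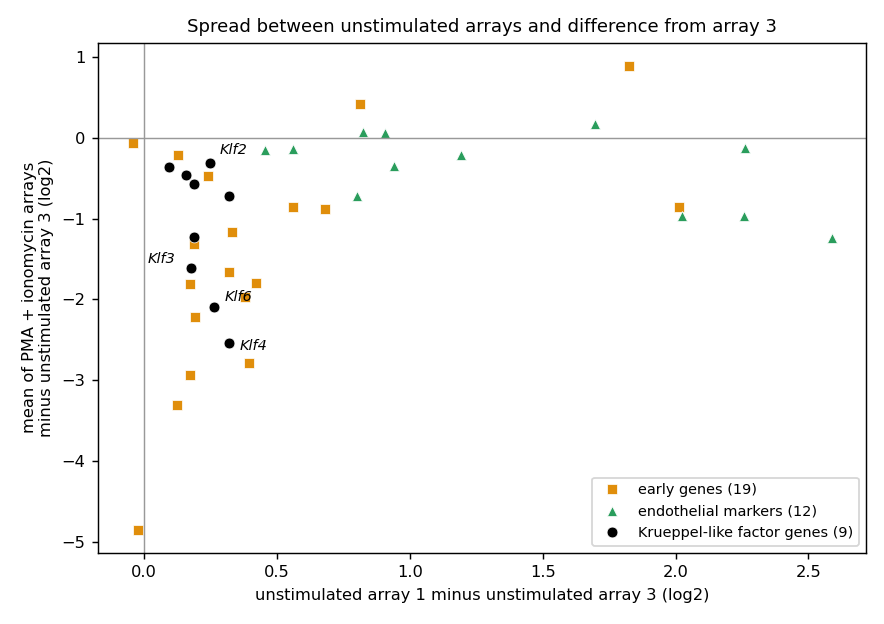
Each point is a gene: the x axis gives unstimulated array 1 minus unstimulated array 3 and the y axis the mean of the PMA and ionomycin arrays minus unstimulated array 3, both in log2. The KLF genes lie between 0.09 and 0.32 on the x axis and between -2.54 and -0.31 on the y axis. Endothelial markers reach 2.59 on the x axis and lie between -1.24 and 0.17 on the y axis. The early genes induced by dissociation lie between -0.04 and 2.01 on the x axis and between -4.85 and 0.89 on the y axis.

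Genes with the profile closest to a KLF gene were found by the root mean square difference over the 5 arrays after each gene's mean was subtracted, among 9800 named genes above the median level. For Klf4 they were Neurl3 (0.0762), Bmp2 (0.133) and Zbtb20 (0.136). For Klf6 they were the interleukin 4 receptor gene Il4ra (0.119), Atf3 (0.126) and Tiparp (0.132). For Klf10 they were Ptx3 (0.0812), Zfp36 (0.105), the gene of a protein that promotes decay of cytokine mRNAs, and Ivns1abp (0.110). For Klf2, Fzd5 (0.0257), Apol8 (0.0351) and Brwd1 (0.0364) were closest. Among the 9 themselves the closest profiles were those of Klf7 and Klf12 (0.111), and the farthest those of Klf2 and Klf4 (1.15).

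The calls depended on single arrays. The signs of the 9 differences were the same in every setting tried. As the groups overlapped for none of the 9, leaving out arrays could not have reversed a sign. Without unstimulated array 1, 2 or 3, limma called none of the 9. In each of these fits 8 of the 9 had an unadjusted p under 0.05. So had 3244, 3024 and 3918 of the 19938 genes in either direction, without array 1, 2 and 3 in turn. Calls were lost as well without PMA and ionomycin array 1 or 2, where a lone stimulated array was left. A lone PMA and ionomycin array was assumed to vary like the unstimulated ones. Over all genes these fits called lower 0.0251% without unstimulated array 1, none without array 2, 0.216% without array 3, 1.04% without PMA and ionomycin array 1 and 2.07% without array 2. The differences of Klf4 ran from -2.99 to -2.38 over those 5 fits, those of Klf6 from -2.35 to -1.99 and those of Klf3 from -1.88 to -1.70. Calls of other genes named here were lost too: of these 5 fits, Nr3c1 was called only in that without unstimulated array 3 (adjusted p = 0.036), Txnip and Fosb in all but those without unstimulated array 1 or 2 (adjusted p up to 0.0907 for Txnip and 0.0838 for Fosb), Dusp1 and Fos in those without a PMA and ionomycin array, and Jun, Atf3 and Nfkbia in none of the 5. Conversely, 8 of 9 were called (all but Klf2) among the 7579 genes without a repeated value, where 15.3% of genes were called lower, and the same number after quantile normalization, where 3.66% were. It was 7 of 8 tested among genes above the median level (6.91% of genes called lower) and 6 of 9 with arrays centred on their medians (2.64%). The 3 calls held with an intensity trend (1.03% of genes called lower), array weights (1.16%) and a filter at the lower quartile (2.21%). They also held with the mean of a gene's probe sets and all probe sets tested apart (0.943% each). None held with robust eBayes (0.331%). There 8 of the 9 had an unadjusted p under 0.05, as had 3764 of the 19938 genes in either direction.

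**Figure D4:**
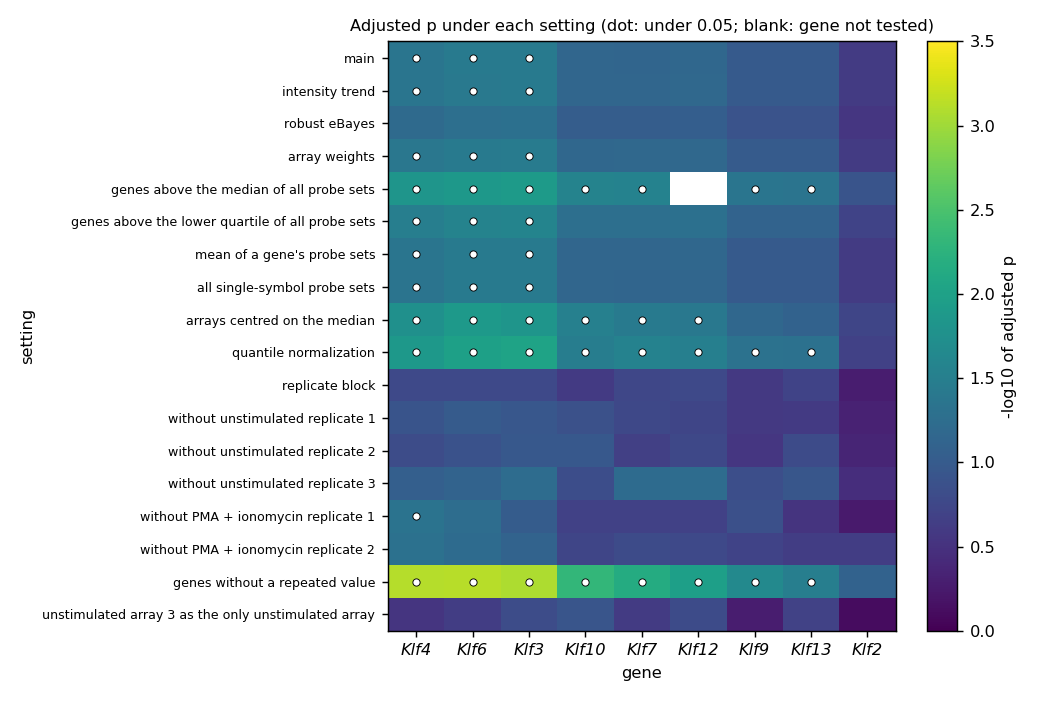
Adjusted p of each of the 9 genes (columns) under the main setting and 17 alternatives (rows), coloured by -log10 of the adjusted p, with a dot where it is under 0.05 and a blank where the gene was not tested. Klf4, Klf6 and Klf3 carry dots in most settings that keep all 5 arrays, Klf2 in none, and the rows that leave out an array carry a single dot.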

How the data were processed

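The deposited values are log2 expression values per probe set from RMA, per the submitters' processing notes. Its version, and which arrays were normalized together, are not given in the sources used here. There were 35556 probe sets, of which 21789 had a single gene symbol in the platform's annotation, 1621 had several and 12146 were not in it; probe sets with several symbols were left out. A gene with several probe sets was represented by the one of highest mean level. Groups came from the sample titles. Groups were compared with limma 3.58.1 (lmFit, eBayes, no filter on dim genes) in R 4.3.3, with Benjamini-Hochberg adjustment over 19938 genes. The scripts were tested on simulated data.

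The KLF genes, the gene lists and the naming rule were chosen with earlier results of these data known. The rule named all KLF and Sp genes, called members of the lists up to 6 by size, and Foxo1, Elf4, S1pr1, Itgb7, Ccr7, Cdkn1a, Cdkn1b, Myc, Smad7, Ccl5, Ctbp1 and Ctbp2; 1 further gene is not reported here. Smad3, Kat2b, Hdac2, Fhl3, Ier3, Socs3, Hspa8 and the cell type markers singled out were named after their values were seen. Alternatives were other eBayes settings, array weights, filters, probe set summaries, normalizations, a stricter threshold, leaving out each array in turn and a block for replicate numbers. Fits restricted to genes with no repeated value, and with unstimulated array 3 alone, were added after seeing the data. Marker sums add 2 to the power of the log2 values. The number of arrays limits the precision.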

Additional observations from a re-analysis of the deposited data

How the results depend on the processing

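The 9 KLF genes kept their sign in all 18 alternatives in which they were tested (17 for Klf12). As their groups did not overlap, only median centring or quantile normalization could have changed it. An intensity trend, array weights, a filter at the lower quartile, the mean of a gene's probe sets and keeping all probe sets apart left the count called lower at 3. Robust eBayes called 0 of the 9, with 45 genes higher and 66 lower over all and 5 of the network lists. At an unadjusted p under 0.05 it had 8 of the 9, against 3764 of all 19938 genes in either direction. Testing only genes over the median level gave 7 of 8 tested (Klf12 was too dim), with 824 higher and 716 lower 26 of the network lists and 3 other KLF and Sp genes. That filter at the lower quartile gave 317 genes higher and 351 lower over all. With arrays centred on their medians 6 of 9 were called, with 660 higher and 526 lower so that 55.6% of calls were higher, against 43.4% in the main setting, and 21 of the network lists and 1 other KLF or Sp gene. Quantile normalization gave 8 of 9, with 825 and 729, 24 and 2. Genes without a repeated value gave 8 of 9, with 1548 and 1161, 31 and 3. An adjusted p under 0.01, and unstimulated array 3 as the only unstimulated array, gave 0 in each of these counts. The network lists had 10 called lower in the main setting. Leaving out each array gave 0 to 1 of the 9 KLF genes, 0 to 361 genes higher and 0 to 413 lower, 0 to 5 of the network lists and 0 to 1 other KLF or Sp gene. Replicate numbers as a block gave 0 calls in each count. At an unadjusted p under 0.05 stood 8 of the 9 there, against 3568 of all 19938 genes in either direction. Deviations of same-numbered arrays correlated across genes at -0.145 and -0.0582, so the numbers are not known to pair the samples. Sp3 differed by 0.024 instead of -0.10 against unstimulated array 3 alone. The causes were not tested. With no detection calls, low values of Klf12 and the stimulated values of Klf4 and Klf10 cannot be set apart from background.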
